A study of Mus musculus with 73 samples.

Results

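HNF6 (Onecut1) regions that recurred in every control mouse liver list but overlapped no FoxA site are described here. Peaks of the 3 control HNF6 lists were merged into 7248 regions, of which 1078 were overlapped by a peak of each list. Of those 1078, the 680 that shared no base with a site of the developmental FoxA table are the members, and the remaining 398 are regions at FoxA sites. The members comprised 406 autosomal regions, 238 regions on the X chromosome and 36 on the Y chromosome. Members were thus chosen by their peaks in the control lists and by the absence of a FoxA site, so those values are given as descriptions without a test.

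HNF6 is a cut-homeodomain transcription factor of hepatocytes and biliary cells, with a role in liver and pancreas development. FoxA1 and FoxA2 are forkhead factors that can bind their sites in closed chromatin and take part in opening liver enhancers during development. HNF6 and FoxA factors are known to share many liver enhancers, so HNF6 regions away from FoxA sites are a natural point of reference for what loss of FoxA does to HNF6 binding. DNA methylation at CpG sites is usually low at active enhancers and promoters and high elsewhere in the genome.

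HNF6 was measured by chromatin immunoprecipitation with sequencing (ChIP) of mouse liver in 2 developmental nulls, 2 adult nulls and 3 controls. Developmental nulls carried Foxa1L/L;Foxa2L/L with Alfp Cre, which is active in the embryonic liver lineage. Adult nulls carried the same floxed alleles and received AAV8 Cre under the hepatocyte-specific Tbg promoter at 8 weeks of age, 1 month before sampling, so that cells other than hepatocytes keep their FoxA alleles. Controls carried Foxa1L/L;Foxa2L/L without Cre, and like the developmental nulls were 8 weeks old.

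DNA methylation was measured by reduced representation bisulfite sequencing (RRBS, which samples CpG-rich fragments) of liver and by whole-genome bisulfite sequencing (WGBS) of Percoll-enriched hepatocytes. In RRBS, 4 developmental double nulls and 4 controls aged 20 days, 8 weeks, 4 months and 6 months formed an age series with 1 library per genotype and age. RRBS libraries of livers depleted in development with FoxA1L/L;FoxA2L/+ (2 libraries, 8 weeks old, 1 Foxa2 allele left) and with FoxA1L/+;FoxA2L/+ (2 double heterozygotes of the same age) were set against the age-series controls. Triple nulls 7 days after Cre (3 libraries, 9 weeks old) and 13 days after Cre (2 libraries, 12 weeks old) each had as many controls with GFP in place of Cre. Those controls were FoxA1L/L;FoxA2L/L;FoxA3-/- (the labels write FoxA2L;L), so both arms lacked Foxa3. Adult double nulls after partial hepatectomy (3 libraries, 12 weeks old) were set against controls given AAV GFP and the same surgery (2 libraries). WGBS held 2 developmental nulls, 2 adult nulls and 2 controls with the genotypes, ages and timing of Cre given for HNF6 (8 weeks old, or given Cre at 8 weeks and sampled 1 month later). No expression values were used, so the identity and purity of the cells could not be checked here, and the deletion of Foxa1 and Foxa2 itself was not checked.

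The peak lists differed in length, in caller and in the share of peaks on the sex chromosomes. The lists held 3122 and 1188 peaks in the developmental nulls, 4028 and 5678 in the adult nulls, and 5767, 4652 and 1770 in the controls. Peaks on X made up 49.7% and 39.7% of the developmental null lists, 14.1% and 7.71% of the adult null lists, and 12.6%, 15.5% and 38.4% of the control lists. Developmental null and control peaks were called with MACS 2.1.1 and adult null peaks with MACS 1.4.3, so fold enrichments (ChIP over local input, as the authors' caller gave them) are set side by side across these callers but not compared. Median peak width was 87.5 and 82 bp in developmental nulls, 307 and 320 bp in adult nulls, and 150, 131 and 84 bp in controls. Libraries held 16760874 to 30469386 ChIP tags after duplicates were removed, and the per-header share of redundant tags was 62% and 48% in developmental nulls, 0% in both adult nulls, and 53%, 58% and 38% in controls. Control 3, with the shortest control list and 965 autosomal peaks against 4963 and 3863 in controls 1 and 2, therefore set most of the limit on which regions could be members.

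All members on X and Y are members by construction, because the FoxA table held 33302 sites of 400 bp and none of them was on X, Y or the mitochondrial chromosome. The autosomal members were spread over every autosome, with 12 to 37 per chromosome, and made up between 38.7% (chromosome 15) and 65.5% (chromosome 6) of the reproducible regions of a chromosome. The X members were not spread out. Of the 238, 215 (90.3% of X members and 31.6% of all members) lay within chrX:120113922-123305677 (mm9), a stretch of 3191756 bp.

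Members on the sex chromosomes lay close together, and those on autosomes mostly did not. Of X members, 218 of 238 (91.6%) had another member within 10000 bp, with a median gap of 814 bp to the nearest one. The same held for 29 of 36 Y members (80.6%), with a median gap of 495 bp. Only 20 of the 406 autosomal members (4.93%) had such a neighbour, and their median gap was 1608910 bp. X and Y members of one cluster are thus not independent regions.

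The share of peaks in the X interval varied strongly between libraries, also among controls. The interval held 960 and 368 peaks of the developmental nulls (30.7% and 31.0% of each list), 394 and 283 of the adult nulls (9.78% and 4.98%), and 493, 485 and 541 of the controls (8.55%, 10.4% and 30.6%). Control 3 thus resembled the developmental nulls in this share, and controls 1 and 2 lay near the adult nulls.

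**Figure D1:**
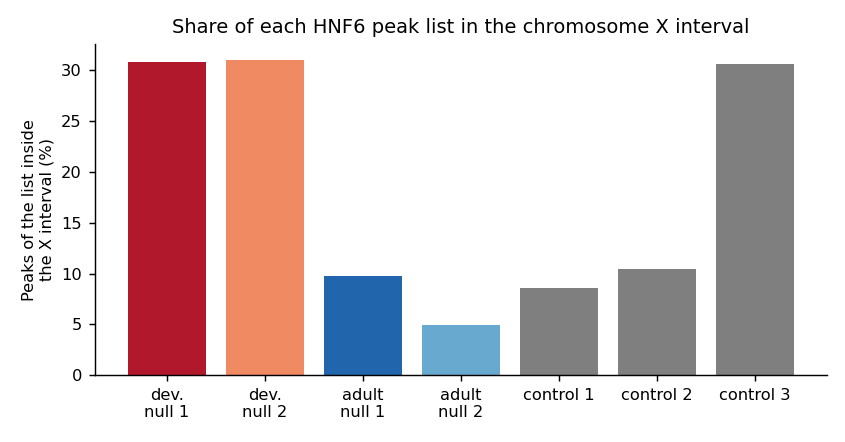
Share of each HNF6 peak list (percent of its peaks, y axis) that lay in the X interval holding most X members, one bar per library, developmental nulls, adult nulls and then controls along the x axis. Both developmental nulls and control 3 stand at 30.6% to 31.0%, and the other libraries at 4.98% to 10.4%.

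Autosomal members were strong peaks in controls 1 and 2, whereas members on X and Y were weak ones there. The within-list percentile of a region's fold enrichment (100 is the strongest peak of that list) had a median of 89.1, 86.4 and 62.0 in controls 1, 2 and 3 over autosomal members. The medians were 91.8, 87.8 and 59.9 over regions at FoxA sites, 14.6, 17.6 and 52.9 over X members, and 1.21, 1.43 and 8.02 over Y members. As fold enrichment, autosomal members had medians of 17.3, 13.7 and 6.48, X members 5.21, 5.18 and 6.00, and Y members 2.57, 2.68 and 3.36. Autosomal members were therefore about as strong as regions at FoxA sites (medians of 18.9, 14.2 and 6.44), and control 3 had the lowest median fold of the 3 controls for both. Their width was similar too, with a median of 205 bp (range 111 to 767) for autosomal members and 213 bp (range 138 to 589) for regions at FoxA sites. Members on X and Y had medians of 237 and 232.5 bp.

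The 8 members with the highest mean percentile over the controls were all autosomal, and 7 of them had a peak in all 4 null lists. The strongest, chr9:74504312-74504559, lay 14580 bp from the nearest FoxA site. Its fold enrichment was 11.5 and 10.3 in developmental nulls, 51.5 and 66.8 in adult nulls, and 34.7, 42.6 and 13.0 in controls. Both developmental null values were below all 3 control values at this region. The second, chr10:86308110-86308530, lay 1101 bp from a site, with folds of 4.56 and 6.27 in developmental nulls, 24.5 and 12.1 in adult nulls, and 33.4, 35.0 and 13.4 in controls. The third, chr6:30515987-30516230, lay 118366 bp from a site and was the one that missed a list: it had a fold of 7.32 in developmental null 1 and no peak in developmental null 2, 38.9 and 32.0 in adult nulls, and 35.7, 25.8 and 15.0 in controls.

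The other 5 of the strongest members had peaks everywhere. Region chr6:114607305-114607537, 6255 bp from a site, had folds of 12.0 and 14.9 in developmental nulls, 43.4 and 52.1 in adult nulls, and 34.9, 25.2 and 14.5 in controls. Region chr7:46594722-46595126, 108985 bp from a site, had 8.95 and 14.1 in developmental nulls, 66.0 and 74.8 in adult nulls, and 43.4, 28.7 and 12.2 in controls. At these 2 regions the values of the developmental nulls lay near that of control 3 and under those of controls 1 and 2. Region chr19:34831428-34831664 (233 bp), chr11:98452060-98452309 (9821 bp) and chr5:102984921-102985306 (6947 bp) had developmental null folds between 5.18 and 14.1, adult null folds between 38.8 and 71.5, and control folds between 11.3 and 35.0. A strong control peak thus lay both within 1000 bp of a FoxA site and beyond 100000 bp.

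Distance to the nearest FoxA site, edge to edge, had a median of 6537 bp over the 406 autosomal members, with quartiles of 1453 and 25382 bp and a range of 15 to 1107543 bp. Of the autosomal members, 94 lay within 1000 bp of a site, 87 at 1000 to 5000 bp, 105 at 5000 to 20000 bp, 80 at 20000 to 100000 bp and 40 beyond 100000 bp. The nearest members fared differently from one another in the nulls. Region chr1:39491205-39491457, 15 bp from a site, and chr14:77211809-77211981, 19 bp from a site, had peaks in all 4 null lists, chr1:191931085-191931279 at 25 bp had peaks in both adult nulls and neither developmental null, and chr12:13009748-13009896 at 20 bp had none. Just on the other side of the rule stood regions that overlapped a site by 3 bp (chr9:63389548-63389702, in 0 null lists), by 4 bp (chr9:88605864-88606111 and chr12:105613558-105613783, in 4 each) and by 10 bp (chr1:193237649-193237830, in 4).

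Among the farthest members, 3 of 4 had peaks in all null lists. Region chr6:10136349-10136498, 1107543 bp from a site, had folds of 18.8 and 10.8 in developmental nulls, 19.7 and 18.7 in adult nulls, and 10.7, 16.2 and 8.05 in controls. Region chr1:45008018-45008177, 795533 bp away, had 35.3 and 20.0 in developmental nulls, 28.6 and 22.2 in adult nulls, and 16.5, 18.8 and 9.12 in controls, so that both developmental null values lay above all 3 controls. Region chr14:107474474-107474632, 574200 bp away, had 16.5 and 12.3 in developmental nulls, 20.4 and 25.4 in adult nulls, and 10.7, 17.7 and 8.00 in controls. The exception, chr13:68321839-68322025 at 736463 bp, had no peak in the developmental nulls, 20.4 and 14.7 in adult nulls, and 15.4, 10.1 and 7.51 in controls.

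Retention, the share of members overlapped by at least 1 bp of a peak in a null list, was then compared between the kinds of null. Over all 680 members it was 65.6% (446 members, Wilson 95% interval 61.9 to 69.1) and 49.0% (333, 45.2 to 52.7) in developmental nulls. In adult nulls it was 86.3% (587, 83.5 to 88.7) and 81.0% (551, 77.9 to 83.8). The same shares over all 1078 reproducible regions were 61% and 45.2% in developmental nulls and 89.5% and 86.9% in adult nulls. Members were thus retained more often than that background in both developmental nulls and less often in both adult nulls. The intervals cover counting error over regions only. In whole liver, fewer cells with binding and weaker binding per cell cannot be told apart.

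That contrast came with the sex chromosomes. On the autosomes, members were retained at 51.7% (210 of 406, 46.9 to 56.5) and 41.9% (170, 37.2 to 46.7) in developmental nulls and at 95.3% (387, 92.8 to 97.0) and 97.0% (394, 94.9 to 98.3) in adult nulls. All autosomal reproducible regions stood at 52.5% and 40.3% in developmental nulls and at 95.1% and 97% in adult nulls, so the autosomal members lay at the background in every list. Regions at FoxA sites were retained at 53.3% and 38.7% in developmental nulls and at 95.0% and 97.0% in adult nulls. Autosomal members minus regions at FoxA sites came to -1.54 and 3.18 points in developmental nulls and 0.345 and 0.0594 points in adult nulls. The mean of 0.510 points did not pass an exact two-sided sign-flip test over the 4 lists (p = 0.625, smallest possible 0.125). Over all members the differences from regions at FoxA sites were 12.3, 10.3, -8.65 and -16.0 points (mean -0.502, p = 1 by the same exact test).

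**Figure D2:**
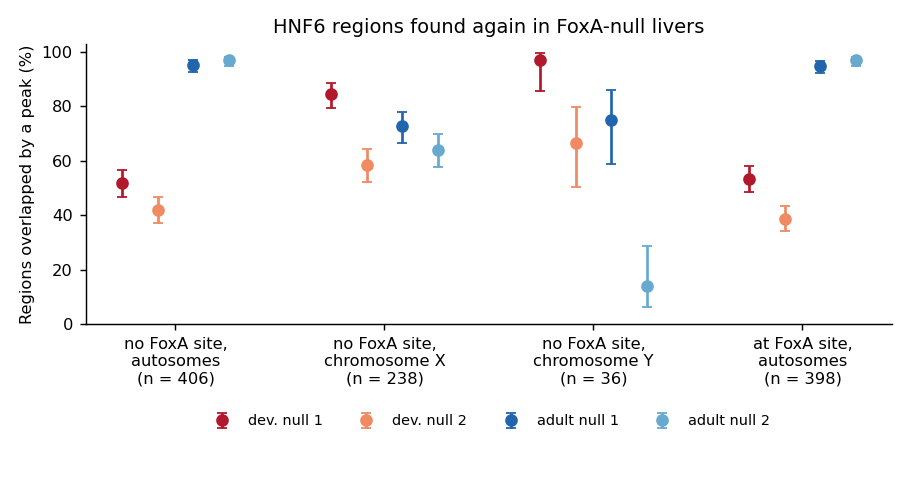
Retention (percent of regions with a peak, y axis) of autosomal, X and Y members and of regions at FoxA sites in each null list, developmental nulls left of adult nulls. Bars are Wilson 95% intervals over regions; autosomal members and regions at FoxA sites overlap in all 4 lists, at 38.7% to 53.3% in developmental nulls and 95.0% to 97.0% in adult nulls.

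Autosomal members had a peak in developmental nulls about as rarely as regions at FoxA sites did, and nearly all had one in adult nulls. Mean retention of autosomal members was 46.8% ± 6.97 in developmental nulls and 96.2% ± 1.22 in adult nulls (SD, n = 2 each), a difference of -49.4 points. For regions at FoxA sites it was 46.0% ± 10.3 in developmental nulls and 96.0% ± 1.42 in adult nulls, a difference of -50.0 points. Neither pair of groups overlapped, and the exact two-sided permutation p was 0.333 for both, the smallest that 2 against 2 libraries can give. The adult null lists came from another caller, held more autosomal peaks (3377 and 5195, against 1373 and 650 in developmental nulls) and had wider peaks, and the design cannot tell these apart from the kind of null. Only 0 and 13 adult null peaks had a false discovery rate of at most 1%. Adult nulls were also older and had received virus, which cannot be told apart from the kind of null either. With only the 650 best autosomal peaks of each null list, a choice made after the data were seen, autosomal retention was 33.5% and 41.9% in developmental nulls and 54.4% in each adult null, a difference of -16.7 points.

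Members on X and Y behaved otherwise in the lists. X members were retained at 84.5% (201 of 238) and 58.4% (139) in developmental nulls and at 72.7% (173) and 63.9% (152) in adult nulls. Y members were retained at 97.2% (35 of 36) and 66.7% (24) in developmental nulls and at 75.0% (27) and 13.9% (5) in adult nulls. Developmental minus adult retention was 3.15 points on X (exact permutation p = 1) and 37.5 points on Y (p = 0.667). Within the X interval, 182 and 128 of 215 members had a peak in developmental nulls (84.7% and 59.5%) and 154 and 132 in adult nulls (71.6% and 61.4%). Of the 23 X members outside the interval, 19 and 11 had one in developmental nulls and 19 and 20 in adult nulls.

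Few autosomal members were missing in adult nulls, and none was found in developmental nulls alone. Of the 406, 136 (33.5%) had a peak in all 4 null lists, 142 (35.0%) in both adult nulls and neither developmental null, and 0 in both developmental nulls and neither adult null. Both adult nulls held 381 of them and both developmental nulls 137. Peaks were found in 3 null lists for 104 members, in 2 for 145, in 1 for 15 and in 0 for 6. On X, 16 members were in both developmental nulls and no adult null, and 5 were in both adult nulls and no developmental null.

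The members found in no null list ranged from weak control peaks to folds above the autosomal member medians of controls 1 and 2 (17.3 and 13.7). A weak one, picked after its values were seen, was chr3:4065709-4065857, with control folds of 3.57, 2.69 and 3.43. The strongest autosomal ones were chr6:42204509-42204723, 2265 bp from a site, with control folds of 21.1, 15.2 and 6.44, the member chr12:13009748-13009896 named above, with 13.5, 13.2 and 5.37, and chr19:34277888-34278074, 9283 bp from a site, with 12.7, 10.6 and 5.90. On X, chrX:122672510-122672670 and chrX:120545664-120545874, both inside the interval, were also in none, with control folds of 8.04, 8.76 and 5.40 at the first and 8.07, 6.37 and 6.80 at the second.

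Retention did not follow distance from a FoxA site in the developmental nulls. Members within 1000 bp of a site were retained at 48.9% and 40.4% in developmental nulls, and those beyond 100000 bp at 55.0% and 45.0%. The 3 bins between stood at 50.0% to 53.3% in developmental null 1 and at 37.9% to 45.0% in developmental null 2. In adult nulls the shares were 96.8% and 98.9% within 1000 bp, and 87.5% and 92.5% beyond 100000 bp, where 40 members were counted. The 19 members missing from adult null 1 and the 12 missing from adult null 2 had median distances of 19239 and 15782.5 bp. They were also weaker in the controls, with median mean percentiles of 60.3 and 48.0 against 77.3 and 76.9 for members retained. Their median widths were 173 and 166.5 bp, against 207 and 205 bp. The median mean percentile was 79.4 within 1000 bp of a site and 72.5 beyond 100000 bp. The parts of distance, strength and width were not tested.

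**Figure D3:**
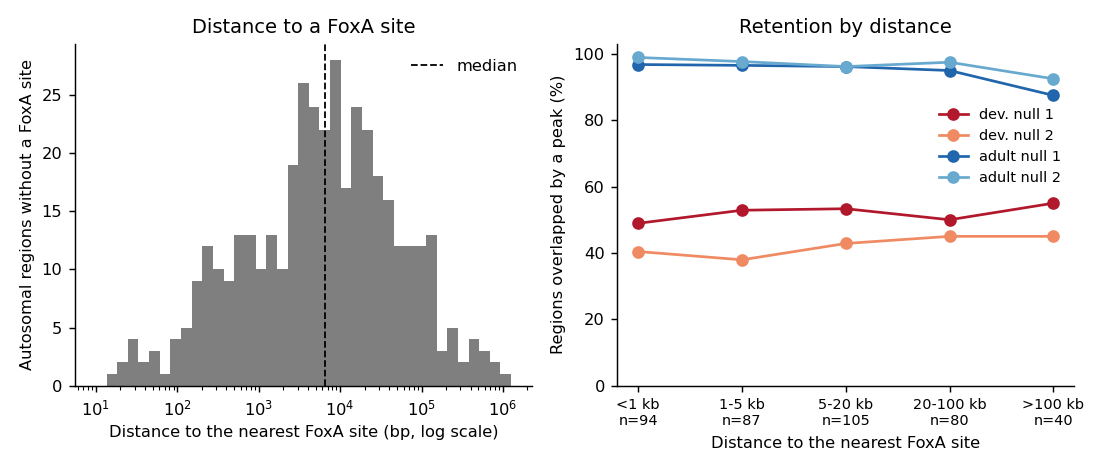
Left, number of autosomal members (y axis) by distance to the nearest FoxA site in bp on a log axis; right, percent of members with a peak in each null list (y axis) by distance bin, developmental nulls before adult nulls in the legend. Developmental null 1 stays between 48.9% and 55.0% and developmental null 2 between 37.9% and 45.0% over the 5 bins.

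Retention in developmental nulls did follow the strength of the control peak. Autosomal reproducible regions were split into quartiles by their mean percentile over the 3 controls, which holds 110, 100, 95 and 101 members from weakest to strongest. Retention of members in developmental null 1 was 27.3%, 46.0%, 60.0% and 76.2% over these quartiles, and in developmental null 2 it was 17.3%, 35.0%, 44.2% and 73.3%. The share was higher with each step of strength in both lists, and adult nulls were near their ceiling, at 89.1% and 91.8% in the weakest and 100% in the strongest quartile. Regions at FoxA sites showed a like order, with 26.4%, 50.5%, 57.5% and 76.0% in developmental null 1 and 16.5%, 36.6%, 34.9% and 65.0% in developmental null 2. No test is given, since strength in the controls took part in choosing the regions.

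**Figure D4:**
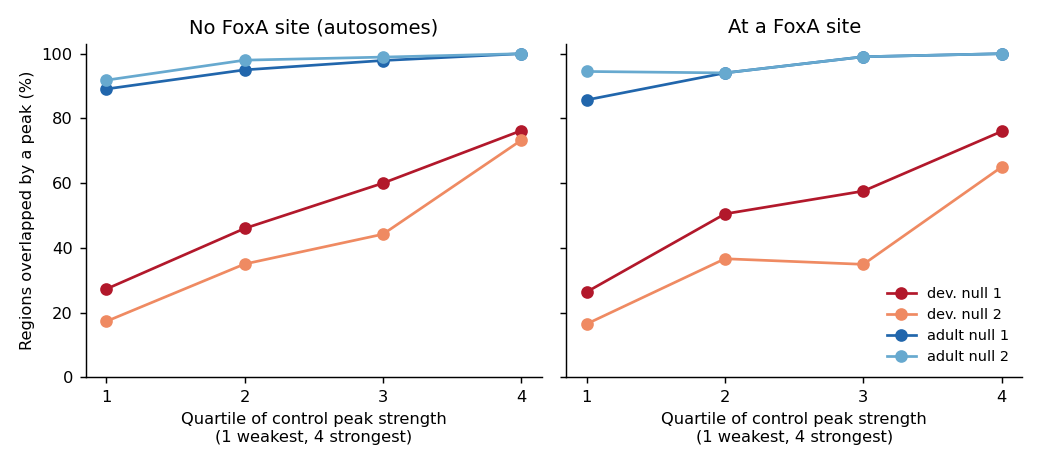
Percent of autosomal regions with a peak in each null list (y axis) by quartile of control peak strength, weakest to strongest (x axis), for members (left) and regions at FoxA sites (right). In both panels the strongest quartile stands at 65.0% to 76.2% in developmental nulls and at 100% in adult nulls.

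The members retained in a developmental null and those not retained differed little in distance and more in strength and width. In developmental null 1, retained members had a median mean percentile of 81.5, a width of 219 bp and a distance of 6450.5 bp, and members not retained had 70.2, 193 bp and 6787 bp. In developmental null 2, retained members had 84.2, 225.5 bp and 6931.5 bp, and members not retained had 71.2, 195 bp and 6438 bp. A wider region also has more bases to overlap, and the part of width in retention was not tested.

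A control left out of the choice gives the retention of such regions in a library with intact FoxA. When controls 1 and 2 alone chose autosomal regions without a FoxA site, 1826 regions resulted. Of these, 23.4% and 15.4% had a peak in developmental nulls, 72.7% and 86.4% in adult nulls, and 22.2% (Wilson 20.4 to 24.2) in control 3. Of the developmental nulls, 1 thus stood slightly above and 1 below a control that took no part in the choice. With control 1 left out, 52.3% and 41.7% of 417 regions were found in developmental nulls, 94.2% and 95.9% in adult nulls and 97.8% in control 1. With control 2 left out, 51.1% and 40.8% of 436 regions were found in developmental nulls, 92.7% and 93.1% in adult nulls and 93.3% in control 2. Retention in developmental nulls was thus far below that in control 1 or 2 when either was left out, while against control 3, whose list is nearest to theirs in its number of autosomal peaks, developmental null 1 was close and developmental null 2 lower (15.4%, Wilson 13.8 to 17.1). At FoxA sites the choice by controls 1 and 2 gave 1312 regions, with 26.8% and 15.7% in developmental nulls, 75.8% and 88.1% in adult nulls and 30.3% in control 3. On X the same choice gave 361 regions, with 72.9% and 47.1% in developmental nulls, 61.2% and 57.9% in adult nulls and 65.9% in control 3.

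Where a null did have a peak at an autosomal member, its rank was more often below than above those of all controls in developmental nulls, and the same held at FoxA sites. In developmental null 1, the within-list percentile lay below that of all 3 controls at 104 of 210 members (49.5%) and above all 3 at 24 (11.4%). In developmental null 2, it lay below at 76 of 170 (44.7%) and above at 14 (8.24%). Regions at FoxA sites stood at 49.5% and 49.4% below and at 5.19% and 3.25% above in the developmental nulls. In adult nulls, 22.0% and 13.2% of the members found lay below all controls and 23.3% and 34.3% above. These ranks come from lists of unequal length, so they describe order within each list and show no change in binding.

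A small group of autosomal members, picked after their values were seen, had a higher fold enrichment in a developmental null than in every control. The fold was above all 3 control folds at 14 of 210 retained members in developmental null 1 and at 5 of 170 in developmental null 2, 15 members in all and 4 in both. Among regions at FoxA sites this held for 0 of 212 and 1 of 154. Several of the 15 were weak in the controls, with a mean percentile as low as 1.94. No region at a FoxA site had a mean percentile under 30.8, so the 2 sets are not matched in control strength. Region chr2:60240774-60240942, 6355 bp from a site, had folds of 39.7 and 23.8 in developmental nulls, 36.8 and 32.0 in adult nulls, and 16.6, 15.5 and 6.25 in controls. Region chr17:56339393-56339548, 6263 bp from a site, had 29.6 and 24.6 in developmental nulls, 15.4 and 28.5 in adult nulls, and 14.5, 18.3 and 9.67 in controls. The fourth besides these and chr1:45008018-45008177 was the weak chr13:4559175-4559299, with 4.92 and 5.43 in developmental nulls, 6.36 and no peak in adult nulls, and 2.14, 3.87 and 3.09 in controls. The 15 lay at a median of 26207 bp from a FoxA site, against 6261 bp for the other autosomal members, and 14 of them lay beyond 5000 bp. No test is given for a group chosen in this way.

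RRBS sampled few members. On autosomes, 41 tiles of 100 bp overlapped 27 of the 406 members (6.65%), 34 tiles in 21 members had a value in at least 1 library, and 18 tiles had one in all 27 libraries. The coverage behind each level is not given in the files, so its depth is unknown. For regions at FoxA sites, 60 tiles fell in 36 regions (9.05%). The X and Y members had none, because the table holds autosomes only.

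Member tiles were low in methylation. Of the 34, 26 had a mean level under 10%, 0 exceeded 50%, and the means ran from 0% to 43.3% with a median of 7.38%. Tiles in regions at FoxA sites had a median of 7.61%. Over all 817277 tiles the median was 84.7%, with 65.8% of tiles above 50% and 19.1% under 10%. Within 500 bp of a member, 18.6% of 215 tiles exceeded 50%, so higher levels did appear near members.

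In the age series, member tiles were highest at 20 days in both genotypes, and nulls did not differ from controls beyond the spread. The mean over 20 tiles in 14 members was 12.7%, 8.72%, 4.30% and 3.29% in developmental nulls aged 20 days, 8 weeks, 4 months and 6 months. In controls of those ages it was 16.5%, 6.09%, 5.27% and 5.17%. The groups overlapped, and each age had 1 library per genotype, so age and library cannot be told apart. Group means were 7.24% ± 4.31 in nulls and 8.27% ± 5.53 in controls (SD, n = 4 each). The difference of -1.03 points was within the spread between libraries (exact two-sided permutation p = 0.714, smallest possible 0.0286, Benjamini-Hochberg adjusted p = 0.8 over the 6 RRBS comparisons). Null minus control was -3.89 points for the 20-day pair, 2.63 for the 8-week pair, -0.965 for the 4-month pair and -1.88 for the 6-month pair. Tiles in regions at FoxA sites averaged 6.40% in nulls and 7.92% in controls, a difference of -1.52 points (p = 0.257 by the same exact test). The difference at member tiles exceeded that at FoxA-site tiles by 0.496 points, which did not pass the exact permutation test (p = 0.971).

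**Figure D5:**
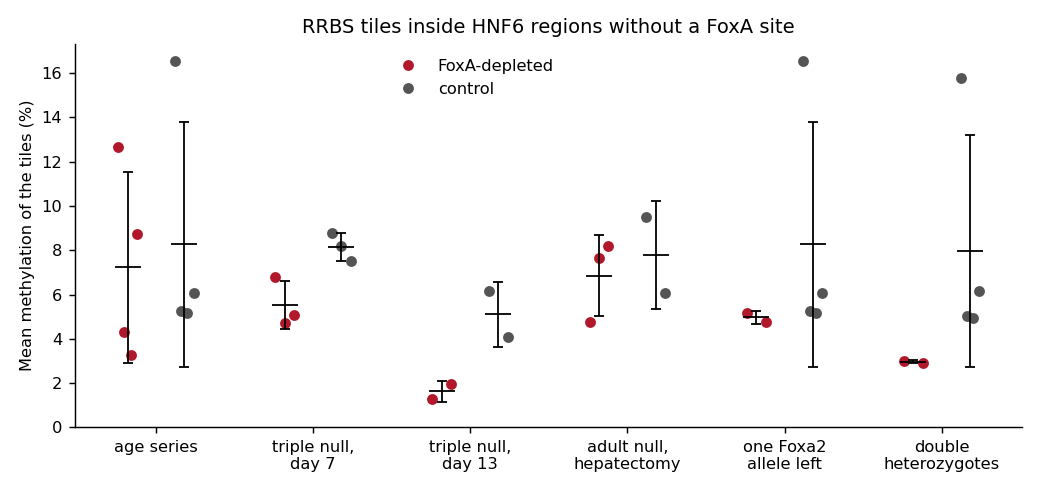
Mean methylation level of member tiles (percent, y axis) in each RRBS library, one point per library with the group mean and SD as bars, null or depleted groups left of their controls in each comparison (x axis). The age-series controls also serve the 2 groups with FoxA alleles left; only the day 7, day 13, single-allele and double-heterozygote groups sit wholly below their controls (the single-allele pair by less than rounding), at 4.74% to 6.78%, 1.30% to 1.97%, 4.77% to 5.17% and 2.93% to 3.01%.

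The triple nulls had lower member-tile levels than their controls at both times. At day 7 after Cre, levels were 6.78%, 4.74% and 5.08% in triple nulls and 8.77%, 8.18% and 7.51% in controls, over 21 tiles in 15 members. These groups did not overlap, with means of 5.53% ± 1.10 in triple nulls and 8.15% ± 0.632 in controls (SD, n = 3 each). The difference of -2.62 points reached the smallest exact permutation p of 3 against 3 libraries (p = 0.1, adjusted p = 0.267). At day 13, levels were 1.30% and 1.97% in triple nulls and 6.16% and 4.08% in controls, means of 1.64% ± 0.477 and 5.12% ± 1.47 (SD, n = 2 each). The difference of -3.49 points had an exact permutation p of 0.333, the smallest possible with 2 against 2 libraries (adjusted p = 0.5). Tiles in regions at FoxA sites differed by a like amount, with 3.56% in triple nulls and 7.18% in controls at day 7 (-3.62 points, exact p = 0.2) and 3.99% in triple nulls and 7.23% in controls at day 13 (-3.24 points, exact p = 0.333).

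After partial hepatectomy the groups overlapped. Adult double nulls had 4.75%, 7.63% and 8.17% and controls 9.52% and 6.07%, with means of 6.85% ± 1.84 in nulls (n = 3) and 7.80% ± 2.43 in controls (n = 2). The difference of -0.944 points was within the spread (exact permutation p = 0.8, adjusted p = 0.8, smallest possible 0.2). Livers with 1 Foxa2 allele left had 5.17% and 4.77%, a mean of 4.97% ± 0.281 against 8.27% ± 5.53 in the age-series controls, which is -3.30 points (p = 0.133 by exact permutation, which 2 against 4 cannot go below, adjusted p = 0.267). Double heterozygotes had 3.01% and 2.93%, a mean of 2.97% ± 0.0599 against 7.97% ± 5.23 in those controls over the tiles complete in this comparison, which is -4.99 points (p = 0.133 by the same exact test, adjusted p = 0.267). Both of these groups were 8 weeks old and share the 4 controls of mixed age, of which the 8-week control had 6.09% over the tiles of the age series.

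No single member tile passed the limma test in any comparison (Benjamini-Hochberg adjusted p of 0.05 over all tiles). In the age series 0 of 20 member tiles were called, beside 0.166% of all tiles higher and 0.0606% lower in nulls, and 2 had an unadjusted p under 0.05, as did 8.75% of all tiles. Of 21 tiles each, 0 were called at day 7 (background 0.000208% higher and 0.000624% lower), at day 13 (0.000452% and 0.000679%) and after hepatectomy (0.00104% and 0.000621%), where 0, 1 and 1 had an unadjusted p under 0.05, as did 4.04%, 4.60% and 4.59% of all tiles. The member counts lay near or below these shares. The calls over all tiles used the spread of all 27 libraries. With the spread of the 2 compared groups alone, 0 tiles were called in each comparison. The median difference of the member tiles was -0.556 points in the age series (0.280 over all tiles tested), -1.85 at day 7 (0.0118), -1.76 at day 13 (-0.0110) and -0.101 after hepatectomy (0). Positive differences numbered 7 of 20, 6 of 21, 2 of 21 and 9 of 21 in these comparisons, against 55.6%, 50.3%, 44.6% and 48.5% of all tiles. Tiles in regions at FoxA sites had 11 of 29, 5 of 28, 7 of 40 and 16 of 35. At day 13, 15 member tiles had a negative difference, and the tiles with no difference were unmethylated in both groups. All tiles had a median level of 84.7%, against 7.38% for member tiles, so these shares are not matched in level.

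Among the member tiles with the largest mean difference in the age series, chr2:165722501-165722600 came nearest to the threshold. It averaged 4.63% ± 5.56 in nulls and 17.7% ± 8.63 in controls (SD, n = 4 each), a difference of -13.0 points (SE 3.48, limma adjusted p = 0.151). The neighbouring tile chr2:165722401-165722500 had 7.94% in nulls and 14.6% in controls (-6.70 points, limma adjusted p = 0.791), and both lie in the member chr2:165722416-165722623. Tile chr5:93150801-93150900 went the other way, with 19.5% ± 22.1 in nulls and 6.24% ± 8.01 in controls (13.3 points, SE 9.49, limma adjusted p = 0.780). Tile chr6:51222301-51222400 had 2.62% ± 2.13 in nulls and 11.9% ± 15.3 in controls (-9.30 points, limma adjusted p = 0.631), and chr10:80553601-80553700 had 10.6% in nulls and 16.8% in controls (-6.22 points, limma adjusted p = 0.814). None of these differences passed the test.

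Tile chr6:85793901-85794000 varied most of the member tiles. It stood at 93.8% in both 20-day libraries, at 50.0% in the 8-week null, and at 0% to 12.5% in the other 5 libraries of the age series. Without this tile, an alternative added after the data were seen, member-tile means were 8.39%, 6.55%, 4.37% and 3.46% in nulls from 20 days to 6 months and 12.5%, 6.41%, 5.55% and 4.78% in controls, so the order of the ages was kept in both. Of the 5 members with 3 tiles, chr6:85793959-85794384 and chr2:165722416-165722623 had tiles missing in most or all nulls of the age series, so no mean over their tiles is compared. Member chr6:51222373-51222592, with all tiles measured in all 27 libraries, had 3.59% in nulls and 8.08% in controls. Group means over the tiles measured stayed under 2% at chr7:134592513-134592739 and chr8:86479063-86479256 in all 10 RRBS groups.

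FoxA sites close to members were examined by WGBS, since a site table gives levels at FoxA sites and not at the members themselves. Over 192 sites within 2000 bp of a member, the mean level was 18.7% and 19.0% in developmental nulls and 15.6% and 17.5% in controls. The groups did not overlap, with means of 18.9% ± 0.208 in nulls and 16.5% ± 1.33 in controls (SD, n = 2 each), so nulls were 2.33 points higher (p = 0.333 by exact permutation, which 2 against 2 cannot go below). Sites that overlap a reproducible HNF6 region themselves (675) had 11.1% in nulls and 10.4% in controls (0.691 points, exact p = 1), and all other sites (32438) had 26.0% in nulls and 21.7% in controls (4.24 points). The sites within 2000 bp of members thus stood between these sets in both level and difference. The difference near members exceeded that at HNF6-overlapping sites by 1.64 points and fell short of that at the other sites by 1.91 points (p = 0.333 for each, by the same exact test). This order depended on the choice of sites. The nearest site of each member, at any distance (390 sites), had 26.3% in nulls and 21.8% in controls. That difference of 4.46 points lay above both sets, as did the levels.

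Few sites near members stood far above the controls. In developmental nulls, 11 of the 192 (5.73%) were more than 20 points above the control mean and 0 more than 20 points below, against 8.12% above and 0.474% below among all 33302 sites. The median difference was -0.137 points near members and 1.07 points over all sites. In adult nulls the 157 sites within 2000 bp had 15.6% and 15.8% in nulls and 16.8% and 18.5% in controls, means of 15.7% ± 0.118 and 17.7% ± 1.21 (SD, n = 2 each), so the null minus control value was -1.99 points (p = 0.333 by the same exact test). HNF6-overlapping sites differed by -2.70 points and the other sites by -1.39 points in adult nulls. Adult nulls were sampled 1 month after virus at 8 weeks of age. Controls and developmental nulls were 8 weeks old, with no virus in their labels. In comparisons with adult nulls, age and virus thus cannot be told apart from adult FoxA loss. The adult table lacks chromosomes 1 and 2. On the 157 sites that both tables share near members, developmental nulls had 19.0% and 19.4% and adult nulls 15.6% and 15.8%, with developmental nulls 3.54 points higher and no overlap (p = 0.333 by the same exact test).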

How the data were processed

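HNF6 ChIP peaks were called by the authors per library against its own input, per the file headers (MACS 2.1.1 for controls and developmental nulls, MACS 1.4.3 for adult nulls). The deposited peak tables give fold enrichment (a ratio), −log10 p- and q-values in MACS 2 lists, and in MACS 1.4 lists a score of −10 log10 p and a false discovery rate in percent. The authors' RRBS and WGBS tables hold methylation as a fraction per 100 bp tile or per FoxA site, printed here as percent, with no coverage, so a coverage minimum of 10 could not be applied and no counting interval can be given for methylation. Per the submitters' processing notes, Trim Galore 0.3.3, BSMAP 2.74 and build mm9 were used. Of the methylation columns, 8 averages and 1 per-sample column of the adult WGBS table were not used. That column bears the name of developmental null 1, but its values equal control 2 at 100% of the sites in both tables. They equal developmental null 1 at 0.960% of those sites. Both controls of the adult WGBS comparison were taken from the developmental table. HNF4a and H3K27ac libraries were not analysed here.

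Peaks were merged by at least 1 bp of overlap. Levels per library are means over tiles complete in a comparison. Groups were compared by exact two-sided permutation, and tiles by limma 3.58.1 (R 4.3.3, all 27 libraries, variance trend). The limma code was tried on simulated data with changes planted only in tiles of middle level. Whether it would call a change at tiles as low as most member tiles was not tested. Python 3.11.15, pandas 2.3.3, scipy 1.17.1 and matplotlib 3.10.9 did the rest. The labels do not tie samples to animals or cultures, so p-values measure the spread between samples, which may be technical. Regions named are the 8 strongest, 4 nearest and 4 farthest members, the 5 strongest in all and in no null list, the 6 tiles of largest age-series difference and members with 3 or more tiles; others are marked as chosen later. Members, lists and tests were chosen with earlier results of these data known. Alternatives were other overlaps, widths, thresholds, list lengths, distances, tile sets, scales, pairings and each library left out. No genome or annotation of mm9 was used, so regions carry positions without genes or sequence.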

Additional observations from a re-analysis of the deposited data

Results flagged for a closer look

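The mean level of member tiles in the 20-day control was 16.5%, far above the other 3 controls of the age series at 5.17% to 6.09%. Tile chr6:85793901-85794000 stood at 93.75% in that same library, against 0% to 12.5% in the other controls, and tile chr6:51222301-51222400 at 34.8%. Such a gap was looked for in 14 groups of 4 libraries, and chance gives one in about 1 of 20 groups. Each age had 1 control, so age and library cannot be told apart.

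Members on X and on autosomes differed in how retention compared between developmental and adult nulls. X minus autosomal retention was 32.7 and 16.5 points in developmental nulls and -22.6 and -33.2 points in adult nulls, so the developmental nulls exceeded the adult nulls by 52.5 points (p = 0.333 by exact permutation, which 2 against 2 cannot go below). For Y members it was 45.5 and 24.8 points in developmental nulls and -20.3 and -83.2 points in adult nulls, an excess of 86.9 points (p = 0.333 by the same exact test). Caller, list length, age, virus and kind of null changed together in these lists and cannot be told apart.

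Methylation of FoxA sites within 2000 bp of members was 3.54 points higher in developmental than in adult nulls (p = 0.333 by the same exact test), with both developmental nulls above both adult nulls. Age and virus differed between these groups too and cannot be told apart from the kind of null.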

How the results depend on the processing

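Of 276 alternatives over 27 results, 220 counted as unchanged and 35 moved a value. A further 20 turned a direction and 1 brought a difference past the threshold. A difference counted as unchanged if it kept its direction and its side of the threshold, whatever its size. Developmental minus adult autosomal retention thus counted as unchanged at -16.7 points with 650 autosomal peaks per null list, against -49.4 points with full lists. Outside the age series no exact test could pass the threshold of 0.05, so those differences could not change side. Among the settings that left out no library, retention moved most. With a stricter peak threshold, 0 and 13 peaks stayed in the adult null lists, so that adult retention was 0% and 0.882% of all members and 0% and 1.48% of autosomal members. Developmental minus adult retention then came to 54.9 points over all members and 44.5 over autosomal members, and members minus regions at FoxA sites to 4.98 points. With 1188 peaks in each null list, retention of all members was 40.6% in developmental null 1 and 54.6% and 45.3% in adult nulls, and that of autosomal members 27.6% in developmental null 1 and 72.7% and 70.9% in adult nulls. With 650 autosomal peaks each, a setting added after the data were seen, autosomal members stood at 33.5% in developmental null 1 and 54.4% in both adult nulls. Peaks set to 200 bp gave 82.2% and 77.2% of all members in adult nulls. Without X and Y, also added later, the 406 members left stood at 51.7% and 41.9% in developmental nulls and 95.3% and 97.0% in adult nulls, 0.510 points from regions at FoxA sites.

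In RRBS, only 4 tiles complete in the age series lay wholly inside members, and their age-series difference was -4.13 points (exact permutation p = 0.0286). That p is the smallest possible with 4 against 4 libraries and is not adjusted. It was the only 1 of 276 alternatives to bring a difference past the threshold. The largest difference of the 4 tiles was -13.0 points at chr2:165722501-165722600, which did not pass limma (adjusted p = 0.151). Within 500 bp the difference was 1.79 points in the age series and 0.00264 after hepatectomy. With tiles of 5 to 95% only, member tiles minus tiles at FoxA sites came to -0.0220 points in the age series. The cause of these shifts was not tested.

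Leaving out 1 library at a time moved the results as follows. Retention of all members ranged from 32.7% to 65.5% and 21.3% to 47.3% in developmental nulls and from 70.9% to 82.1% and 73.4% to 80.4% in adult nulls. Retention of autosomal members ranged from 23.4% to 52.3% and 15.4% to 41.7% in developmental nulls and from 72.7% to 94.2% and 86.4% to 95.9% in adult nulls. The number of members ranged from 773 to 2230; control 3 gave the highest number and the lowest retention in developmental nulls. Members minus regions at FoxA sites ranged from -4.78 to 4.65 points over all members and from -2.13 to 1.19 over autosomal members, and developmental minus adult retention from -48.6 to -18.1 and from -60.2 to -44.5 points. RRBS differences ranged from -2.83 to 1.73 points in the age series, -3.25 to -2.21 at day 7, -4.32 to -0.929 at day 13, -2.67 to 0.777 after hepatectomy, -4.33 to -0.541 with 1 Foxa2 allele and -6.23 to -2.40 in double heterozygotes. The excess of member tiles over FoxA-site tiles ranged from -1.04 to 2.22 points. WGBS differences ranged from 1.39 to 3.27 and from -2.84 to -1.13 points. Member tiles called numbered 0 to 1 in the age series, the 1 without the 4-month control, and 0 elsewhere.

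Age-series libraries of the same number share their age; correlations of same-numbered deviations were 0.060 to 0.366 there and 0.0509 for HNF6, so the numbers were not taken to pair samples beyond age. With the replicate block the age-series difference was -1.03 points (exact sign-flip p = 0.5). With the replicate block limma called 0 of all tiles tested in each of 4 comparisons, and so it did with the spread of the 2 groups alone. The 0 member tiles called under these settings say nothing about stability.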
